A study of Homo sapiens with 8 samples.

Results

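Transcripts of 5 proteins that hepatocytes secrete were followed site by site in RNA bound by the RNA-binding protein QKI7. They are APOB (apolipoprotein B, the structural protein of very low density and low density lipoprotein particles), FGA and FGB (the alpha and beta chains of fibrinogen), FN1 (fibronectin, a glycoprotein of plasma and of the extracellular matrix) and SERPINA1 (alpha-1 antitrypsin, an inhibitor of neutrophil elastase). The genes were chosen by name, with earlier results of these data known. All of their rows in 4 deposited peak lists were taken. These were 5 of the 6520 genes and 28 of the 42083 peaks in the lists. Peaks of a gene were joined into a site where their exon blocks overlapped by 1 base or more, across lists and strand by strand, which gave 8 sites for the 5 genes out of 14518 sites in all.

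The liver is the main source of plasma proteins, and hepatocytes make their mRNAs in large amounts and translate them at the endoplasmic reticulum. QKI (Quaking) is a STAR-family protein that binds mRNA through a KH domain and takes part in splicing, stability, transport and translation of its targets, and QKI7 is its isoform with a distinct C-terminal tail. METTL1 is the catalytic partner of WDR4 in the methyltransferase that places N7-methylguanosine within RNA, first known from tRNA.

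All samples were from HepG2, a line of human liver cancer cells, with Cas9 and a lentiviral Flag-tagged QKI7 transgene, and GFP-positive cells were kept. The sgMETTL1 cells had received a guide that depletes METTL1, and the sgNS cells a control guide. Every group thus overexpressed QKI7, and the labels do not say whether the knockout cells were a clone or a pool. The 8 samples were Flag immunoprecipitated (IP) RNA and input RNA, 2 of each per guide, and each IP sample with its input gave 1 peak list, so that there were 2 lists per guide. The question of the series was whether METTL1 affects the binding of QKI7 to its transcripts.

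The lists held 10095 and 9388 peaks with sgMETTL1 and 11562 and 11038 with sgNS. The fold of a peak is the authors' enrichment of IP over input, with no stated scale between lists, and the median fold was 4.47 and 4.44 with sgMETTL1 and 4.58 and 4.33 with sgNS. The median -log10 p of a peak was 7.42 and 7.98 with sgMETTL1 and 10.8 and 10.8 with sgNS. The p of a peak depends on the number of reads behind it as well as on the fold, and that number is not known here. METTL1 and WDR4 had no peak in any list, so the lists gave no check of the knockout. QKI had peaks in all 4 lists, with a strongest fold of 109 and 107 with sgMETTL1 and 78 and 68 with sgNS. Its strongest -log10 p was 1570 and 1450 with sgMETTL1 and 12300 and 12500 with sgNS. Among sites of all 4 lists 9.9% had folds higher, and 76.2% a -log10 p lower, in both sgMETTL1 than both sgNS lists. The QKI values were not matched by site. Whether the guides were alike in the amount of QKI7 was not tested. Of 11 marker genes of hepatocytes and HepG2 cells 6 had a peak in some list, SERPINA1 and FGB included, and without these members it was 4 of 9, with 2 of 9 in all lists. Of 12 markers of fibroblasts, endothelium and blood 3 had a peak in some list and 1, LYZ, in all lists. A peak shows recovery with QKI7, not the level of a transcript.

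All 5 genes had a peak in each of the 4 lists, as did 4150 of the 6520 genes (63.7%). The members were chosen with earlier results of these data known. How often they and their sites were listed is thus a description and was not tested. No member was among the genes found in both lists of one guide and neither of the other, whose background was 4.63% of genes for sgNS and 1.52% for sgMETTL1. Of the 8 sites 6 were in all 4 lists, against 6003 of all 14518 sites (41.3%). The other two were an upstream site of SERPINA1, in both sgNS lists, and a weak 3' proximal site of APOB, in 1 sgNS list. All 28 peaks were single exon blocks, against 90.7% of all peaks.

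The sites lay at different places in their genes. The centre of 5 of the 8 sites was in the last 10% of the gene's RefSeq span, or beyond its end, as it was for 72.5% of the 13899 sites that could be placed on a RefSeq span. Transcript models were not used here, so whether a site is coding or untranslated is not given. The coordinates below are GRCh38.

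**Figure D1:**
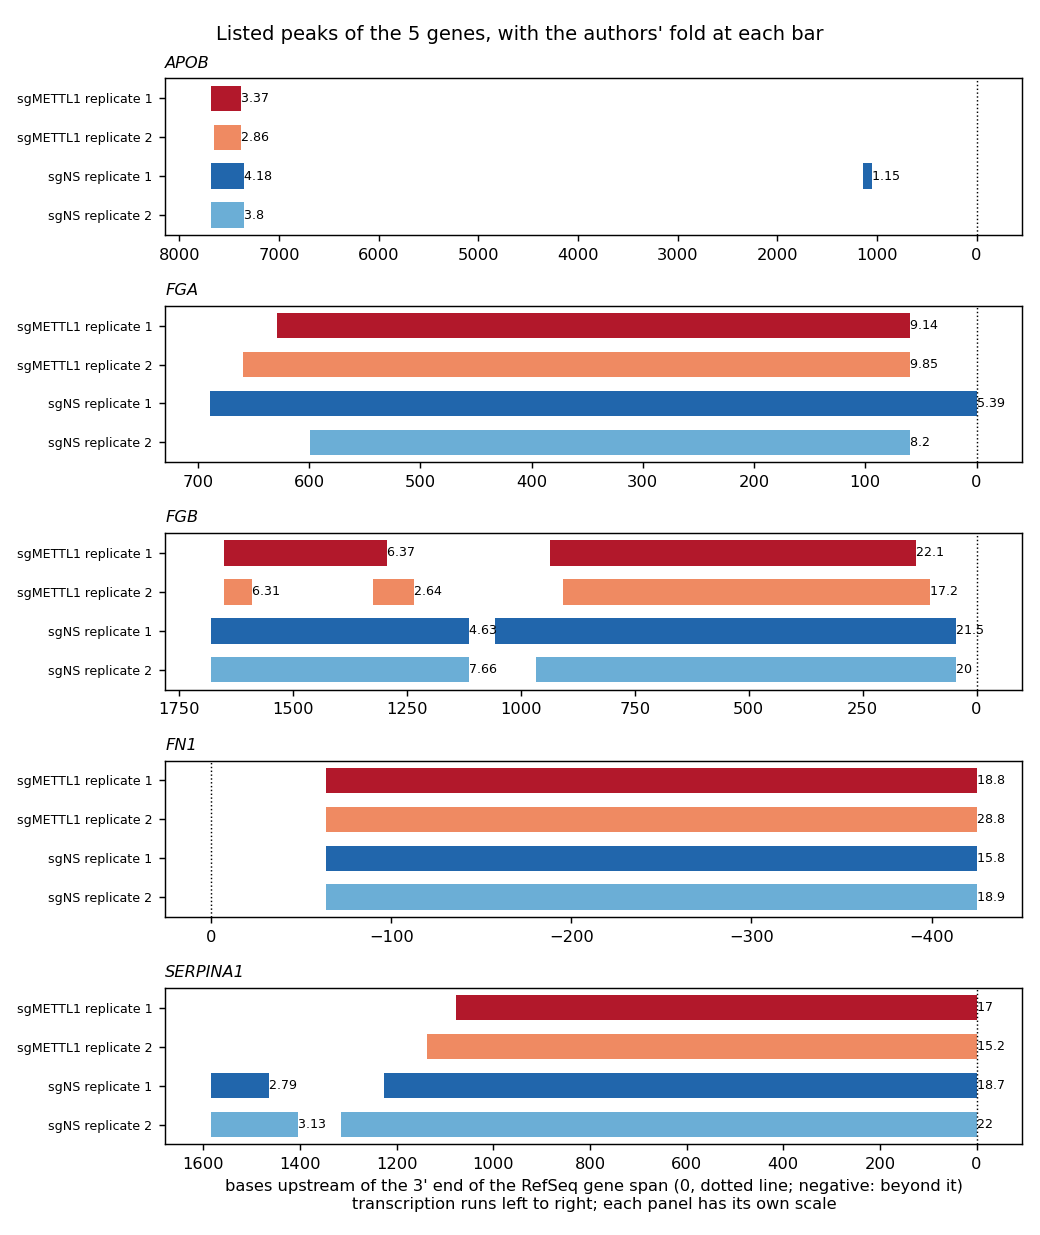
Each bar is 1 listed peak, drawn by its distance in bases from the 3' end of the gene's RefSeq span, with 1 row per list and the authors' fold beside the bar. The FN1 bars are identical in the 4 lists, the upstream SERPINA1 bar is in the sgNS rows only, and the APOB bar with folds of 2.86 to 4.18 begins 7352 to 7382 bases from the 3' end.

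APOB carried its site inside the gene. The peak was on the minus strand of chromosome 2, from 21008811 to 21009111 and from 21008811 to 21009081 in replicates 1 and 2 of sgMETTL1, and from 21008781 to 21009111 in both sgNS lists. It began 7382 bases upstream of the 3' end with sgMETTL1 and 7352 bases with sgNS, and its centre was at 17.6 to 17.7% of the span of 42645 bases. The fold was 3.37 and 2.86 with sgMETTL1, against 4.18 and 3.80 with sgNS. Both sgMETTL1 lists were below both sgNS lists.

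The p of this APOB site was among the smallest of every list although its fold was modest. The -log10 p was 2640 and 2260 with sgMETTL1 and 5640 and 4720 with sgNS. By p the peak ranked 25th and 34th in the sgMETTL1 lists and 22nd and 22nd in the sgNS lists. By fold it stood at the 36.6th and 28.5th percentile of peaks with sgMETTL1 and at the 46.5th and 44.4th with sgNS, where 100 is the strongest. Among sites of all 4 lists, 51 had a p in the top 1% in every list, and the APOB site was the 1 of these whose fold was in the lower 50% in every list. That count was made after the values had been seen and was not tested.

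The second APOB peak was in replicate 1 of sgNS alone. It covered 91 bases (21002478 to 21002568), 1049 bases from the 3' end, with a fold of 1.15, the smallest in that list. Its -log10 p was 23.9, so a fold at the floor of the list went with a p at its 66.2nd percentile.

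The 2 fibrinogen genes lie near each other on chromosome 4, on opposite strands. FGA had 1 site, close to its 3' end on the minus strand, from 154583186 to 154583754 and to 154583784 with sgMETTL1, and from 154583126 to 154583814 and from 154583186 to 154583724 with sgNS. In replicate 1 of sgNS its edge was the last base of the RefSeq span, and in the other 3 lists it was 60 bases short of it. The fold was 9.14 and 9.85 with sgMETTL1 and 5.39 and 8.20 with sgNS. The sgMETTL1 folds did not overlap the sgNS folds and were close together, and the sgNS lists were further from each other than replicate 2 of sgNS was from replicate 1 of sgMETTL1. The -log10 p ran the other way, 60.5 and 58.8 with sgMETTL1 against 101 and 93.8 with sgNS.

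FGB had 2 sites on the plus strand. The one at the 3' end spanned 154571871 to 154572674 and 154571900 to 154572704 with sgMETTL1, and 154571752 to 154572763 and 154571841 to 154572763 with sgNS. Its fold was 22.1 and 17.2 with sgMETTL1 and 21.5 and 20.0 with sgNS, so the sgMETTL1 values lay on either side of the sgNS values. Its -log10 p was 18.7 and 13.9 with sgMETTL1 and 47.7 and 44.0 with sgNS. This site thus stood at the 86.5th to 90.2nd percentile of its lists by fold, but at the 62.8th to 76.9th by p.

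The upstream FGB site was weaker and more broken. It ran from 154571157 to 154571514 in replicate 1 of sgMETTL1, whereas replicate 2 of sgMETTL1 had 2 short peaks there, of 60 and 90 bases, with folds of 6.31 and 2.64. Both sgNS lists had 1 peak of 566 bases, from 154571127 to 154571692. The strongest fold was 6.37 and 6.31 with sgMETTL1 and 4.63 and 7.66 with sgNS, and the groups overlapped. Its -log10 p was 7.98 and 8.21 with sgMETTL1 and 13.2 and 16.5 with sgNS. The stretch between the upstream and the 3' site that no peak covered was 356 and 326 bases with sgMETTL1, against 59 and 148 bases with sgNS.

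FN1 had 1 site with the same coordinates in all 4 lists, 215360440 to 215360800 on the minus strand of chromosome 2 (361 bases). Of the 6003 sites in all lists 69 (1.15%) had the same edges in every list. The FN1 site began 65 bases beyond the 3' end of the RefSeq span of FN1 and ended 425 bases beyond it. Of the 13899 placed sites 14 (0.101%) lay wholly beyond the RefSeq 3' end. The annotation the authors used is not given in the sources used here, so this position is relative to RefSeq. ATIC, a gene of the opposite strand, spans the same bases in RefSeq, and no ATIC peak overlapped the site.

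The fold at FN1 was 18.8 and 28.8 with sgMETTL1 and 15.8 and 18.9 with sgNS. The groups overlapped, since replicate 1 of sgMETTL1 was just below replicate 2 of sgNS, and the spread within sgMETTL1 was larger than the distance between the guides. The -log10 p was 116 and 183 with sgMETTL1 and 195 and 236 with sgNS.

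SERPINA1 had the widest peak of the 5 genes, on the minus strand of chromosome 14. It started at base 94376747, the last base of the RefSeq span, in all 4 lists, and reached 94377823 and 94377883 with sgMETTL1 and 94377972 and 94378062 with sgNS. It covered 1077 and 1137 bases with sgMETTL1 and 1226 and 1316 bases with sgNS. The fold was 17.0 and 15.2 with sgMETTL1, against 18.7 and 22.0 with sgNS. Both sgMETTL1 folds were below both sgNS folds, but the sgNS folds differed from each other by more than replicate 1 of sgMETTL1 did from replicate 1 of sgNS. The -log10 p was 1070 and 1060 with sgMETTL1 and 2010 and 2120 with sgNS. By p the peak ranked 75th and 83rd with sgMETTL1 and 81st and 72nd with sgNS, which left its place in the lists nearly the same.

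The upstream SERPINA1 site was the 1 member site in both lists of one guide and in neither list of the other. It spanned 94378212 to 94378331 and 94378152 to 94378331 in the sgNS lists, with folds of 2.79 and 3.13 and a -log10 p of 58.3 and 78.4. It was separated from the 3' peak by 239 and 89 bases. No peak was listed there with sgMETTL1. Over all sites 7.42% were in both sgNS lists only and 1.21% in both sgMETTL1 lists only.

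By its mean -log10 p of 68.4, the upstream SERPINA1 site ranked 1st of the 1077 sites that were in both sgNS lists only, whose median was 5.43. By its mean fold of 2.96 it ranked 461st, against a median of 2.64. No sgMETTL1 peak was listed there, so leaving out any 1 of the 4 lists could not change this and is no check. Other settings were 50% reciprocal overlap, equal numbers of top-ranked peaks and a minimum fold of 2 times the smallest of the list. They could part or remove its sgNS peaks but could not add an sgMETTL1 peak, and both sgNS peaks were kept as 1 site. The ranks of 1st and 461st describe the strength of sgNS peaks among sites picked for being in both sgNS lists only. They do not measure a difference between the guides. With 2 lists per guide an exact permutation test (two-sided) cannot go below p = 0.333.

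**Figure D2:**
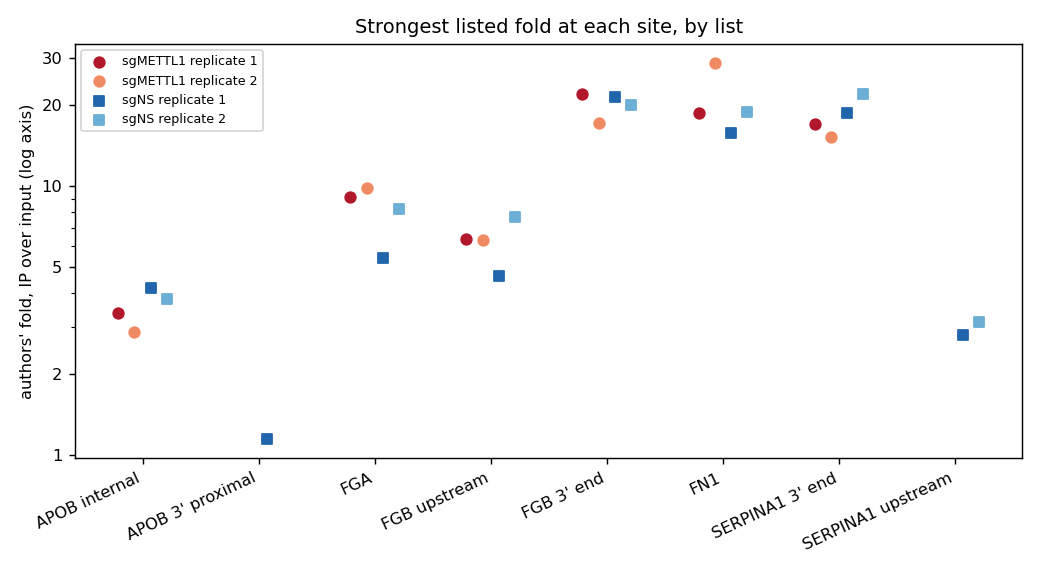
Points are the strongest listed fold (IP over input, log axis) at each of the 8 sites in each of the 4 lists, with sgMETTL1 as circles and sgNS as squares. The 3' sites of FGB, FN1 and SERPINA1 stand between 15.2 and 28.8 and the internal APOB site between 2.86 and 4.18, and 2 sites have points for sgNS only.

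The guides were compared over all 6003 sites of the 4 lists. Folds were ranked within each list, ranks were turned into normal scores, and limma's fit gave the difference of sgMETTL1 minus sgNS. It called 0 of 6003 sites at an FDR of 5% (0.0%), and 628 sites (10.5%) had an unadjusted p under 0.05. None of the 6 member sites was among either. The differences were 0.49 at FGA (SE 0.24, limma's adjusted p = 0.524), 0.34 at FN1 (SE 0.22, 0.607), 0.27 at the upstream FGB site (SE 0.26, 0.741), 0.07 at the 3' FGB site (SE 0.18, 0.919), -0.07 at the 3' SERPINA1 site (SE 0.19, 0.921) and -0.12 at APOB (SE 0.18, 0.848). The 95% interval of every one of them included 0, from -0.12 to 1.11 at FGA and from -0.59 to 0.35 at APOB. The values at FGA and FN1 moved by a factor of about 1.5 or more without the lists named next, and by less without the others. At FGA the difference was 0.24 without replicate 1 of sgNS and 0.73 without replicate 2 of sgNS, where the 95% interval of 0.01 to 1.46 did not include 0 (limma's unadjusted p = 0.0472, adjusted p = 0.609). At FN1 it was 0.15 without replicate 2 of sgMETTL1 and 0.51 without replicate 1 of sgMETTL1. Intervals of this width do not show that the guides were alike. With 2 lists per guide, and no statement that replicates came from separate cultures, these values measure the spread between these samples only, which may be technical.

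**Figure D3:**
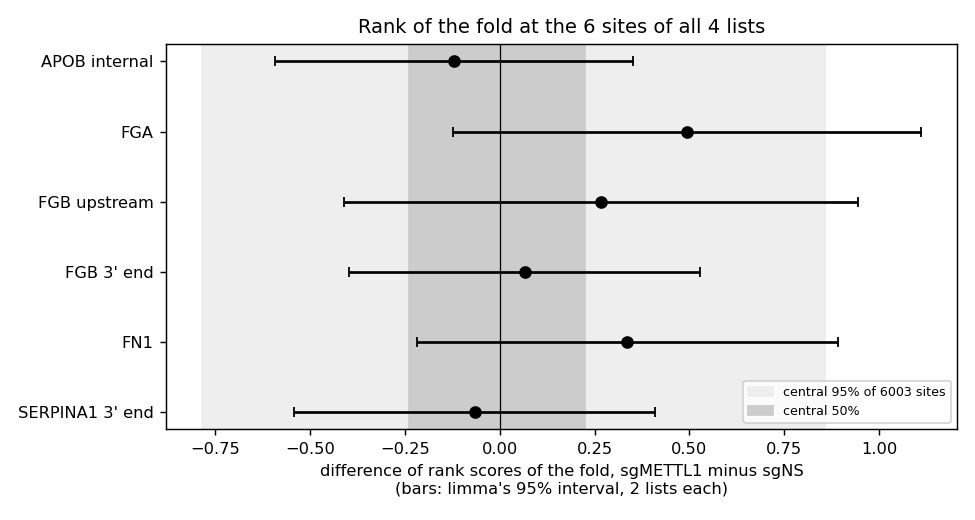
Points are the differences in the rank score of the fold, sgMETTL1 minus sgNS, at the 6 member sites of all 4 lists, with limma's 95% interval, over grey bands that hold the central 95% and 50% of all 6003 sites. Every interval crosses 0, and FGA at 0.49 is the farthest from it.

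The same fit was made by gene, with the strongest peak standing for the gene, over the 4150 genes that all 4 lists held. For each member these peaks were already in the fit by site, so the fit by gene is no separate check. Limma called 0 genes (0.0%), 408 (9.83%) had an unadjusted p under 0.05, and no member was among them. Without replicate 2 of sgNS, FGA was at 0.78 with an interval of 0.03 to 1.54 (limma's unadjusted p = 0.0454, adjusted p = 0.597). The differences were 0.53 for FGA (limma's adjusted p = 0.557), 0.37 for FN1 (0.627), 0.06 for FGB (0.932), -0.09 for SERPINA1 (0.886) and -0.09 for APOB (0.884).

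At the 6003 sites of all 4 lists the folds themselves had a median log2 difference of -0.22, whereas the median folds over all peaks of a list, given above, overlapped between the guides. On that scale the differences were -0.36 at APOB and -0.34 at the 3' SERPINA1 site, which is -0.14 and -0.11 after the median is taken off. They were 0.51 at FGA and 0.43 at FN1, or 0.74 and 0.65 after it is taken off, and limma's adjusted p was 0.489 and 0.562 for these. At the 3' FGB site the log2 difference was -0.09, or 0.14 relative to the median.

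Sites at which the lists of the guides did not overlap were also counted. In folds, 2 of the 6 sites (APOB and the 3' SERPINA1 site) were lower in both sgMETTL1 lists than in both sgNS lists, against 38.7% of all sites, and FGA was higher, against 9.9%. In ranks among the sites of all 4 lists, APOB was lower (23.7% of all sites) and FGA, FN1 and the 3' FGB site were higher (20.3%). The APOB ranks were at the 27.2nd and 22.1st percentile with sgMETTL1 and the 29.3rd and 27.7th with sgNS. The 3' FGB site met this by a hair, at 86.7 and 83.8 with sgMETTL1 and 83.7 and 83.8 with sgNS. For FGA the percentiles were 67.0 and 71.7 with sgMETTL1 and 40.6 and 60.4 with sgNS, and for FN1 they were 84.0 and 91.0 with sgMETTL1 and 76.7 and 82.4 with sgNS.

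The -log10 p was lower in both sgMETTL1 lists at all 6 sites, and so it was at 76.2% of all sites, whereas 3.45% of all sites and none of the 6 were higher. In ranks of p, APOB and the 3' FGB site were lower (26.6% of all sites) and FGA was higher (27.3%). The percentile by p of FGA was 78.7 and 77.9 with sgMETTL1 and 73.9 and 74.0 with sgNS.

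**Figure D4:**
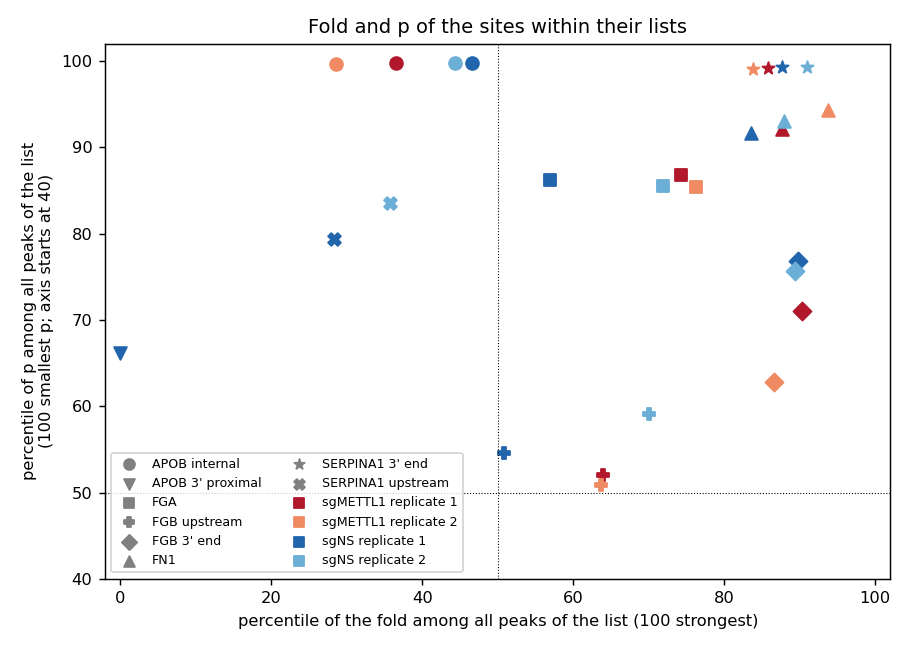
Each point is a member site in 1 list, by the percentile of its fold (x axis) and of its p (y axis, which does not start at 0) among all peaks of that list, with 100 the strongest. The internal APOB site stands at 28.5 to 46.5 by fold and at 99.6 to 99.8 by p, and the 3' FGB site at 86.5 to 90.2 by fold and 62.8 to 76.9 by p.

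Peaks were narrower with sgMETTL1 at 4 of the 6 sites, all but FGA and FN1, with no overlap between the guides. Over all sites this held for 49.1%, and peaks were wider without overlap at 4.0%. Edges moved in coarse steps. Of 15985 edge differences between lists at sites with 1 peak of 1 block in each list, 98.1% were within 1 base of a multiple of 30 bases, against 10% if the remainders were even. At APOB each edge that moved did so by 1 such step of 30 bases. Limma's fit of the log2 of the bases called 0 of 6003 sites (0.0%), with 1269 (21.1%) at an unadjusted p under 0.05, and a median difference of -0.24. The 3' FGB site was the 1 of the 6 members among these (limma's unadjusted p = 0.0382, interval -0.50 to -0.03). The differences were -0.26 at the 3' FGB site (limma's adjusted p = 0.217), -0.21 at APOB (0.265), -0.20 at the 3' SERPINA1 site (0.26) and -1.29 at the upstream FGB site (0.293). The first 3 were close to the median of all sites. The upstream FGB value was -1.92 without replicate 1 of sgMETTL1 and -0.66 without replicate 2 of sgMETTL1, which has the 2 short peaks there. Both sgNS lists had 566 bases at this site, so these fits held no spread between lists there. Their p is thus not given. Over the whole data the sgMETTL1 lists had both weaker p and narrower peaks, and the part of these in the absence of the upstream SERPINA1 peak from the sgMETTL1 lists was not tested.

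A list of other secreted proteins of hepatocytes was also looked up. It was chosen with earlier results of these data known and is not complete, since CLU, a secreted protein named below, is not on it. The share of all annotated genes with a peak is not known here, so the counts do not set the members apart. Of 78 further genes for clotting, protease inhibition, lipid transport, carriers, complement and hormones, 7 had a peak in some list and 4 in all lists. By role they included F5 and PROS1 of 14 clotting and fibrinolysis genes, SERPINA5 of 15 protease inhibitors, ALB of 17 carriers, C5 of 15 complement and acute phase genes and IGFBP1 of 4 hormones and binding proteins.

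SERPINA5, the protein C inhibitor, stood out from these by its p. Its strongest fold was 5.44 and 4.97 with sgMETTL1 and 12.6 and 9.68 with sgNS, with a -log10 p of 1040 and 1000 against 1490 and 1410. It had 2 peaks in each sgMETTL1 list and 1 in each sgNS list, and these folds were not matched by site. Among sites of all 4 lists, 38.7% had lower folds in both sgMETTL1 lists than in both sgNS lists. PROS1 (protein S, a cofactor of activated protein C) had folds of 2.28 and 2.71 with sgMETTL1 and 2.03 and 2.33 with sgNS. Complement C5 had 1.79 and 1.78 with sgMETTL1 and 2.25 and 1.98 with sgNS.

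ALB, F5 and IGFBP1 were in fewer lists. Albumin (ALB) had 1 peak, in replicate 1 of sgNS, with a fold of 6.17 and a -log10 p of 8.59. Factor V (F5) had 1, in replicate 1 of sgMETTL1, at 10.7-fold and a -log10 p of 5.09. IGFBP1, which binds insulin-like growth factors, was listed with sgNS only, at 1.27-fold and 1.19-fold. These folds were near the floor of the lists, at percentiles of 0.31 and 0.11, and 4.63% of all genes were in both sgNS lists only. FGG, which encodes the third chain of fibrinogen, had no peak in any list.

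Genes with the most similar pattern were taken as the 2 with the smallest sum, over the 4 lists, of differences in the percentile of the strongest fold among the 4150 genes. For SERPINA1 they were CLU (clusterin, itself a secreted protein; sum of 4.82 percentile points) and FBXO34 (5.46). For FN1 they were ZNF69 (4.35) and ZNF260 (5.65), for APOB GNPTAB (6.19) and ALDH3A2 (6.90), for FGB CBL (7.58) and NCKAP1 (7.74), and for FGA RAB35 (14.8) and SELK (16.0). With 4 lists and 4150 genes, a near match of this kind is a description.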

How the data were processed

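RNA from 8 samples was used through 4 peak lists, each made from 1 IP and 1 input sample, per the sample descriptions in the labels. UV cross-linking, sonication of the lysate, removal of ribosomal RNA and a stranded library kit are named, per the labels' protocols. Per the submitters' processing notes, STAR and build GRCh38 were used, and the sources used here give no peak caller, threshold or read depth. The fold of a peak is a ratio of IP over input deposited by the authors. The p-value of each peak was deposited by the authors, and log10 values of p and FDR, also deposited by the authors, were handled as a score because of their range. Coordinates are 1-based.

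Folds were ranked within a list over features of all 4 lists, turned into normal scores and compared with limma (version 3.58.1, run under R 4.3.3; two-sided, FDR of 5% by Benjamini-Hochberg over all features). Tables and figures used Python 3.11.15, pandas 2.3.3, scipy 1.17.1 and matplotlib 3.10.9. The site matching and the fit were tested on simulated data. Gene spans are RefSeq, GRCh38.p14. The members, the list of other secreted proteins and the tests were chosen with earlier results of these data known. The genes named are the members, listed genes of the secreted protein list, QKI, METTL1, WDR4 and the 2 genes most similar to each member. ATIC, FGG and LYZ were named after their values were seen. The values of 1 listed gene are not reported here. The fit of peak width was added after the data were seen. Sequences of the sites were not used here.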

Additional observations from a re-analysis of the deposited data

How the results depend on the processing

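Limma called 0 features in every setting run for the fold of genes, the fold of sites and the bases of sites, the replicate block included (smallest adjusted p = 0.473, 0.484 and 0.295 there). Member values changed sign in 12 of 128 alternatives, and none passed the threshold in any. The values by gene and by site rest largely on the same peaks, so these alternatives are not independent. The mean over a gene's peaks gave 0.31 for APOB, 0.69 for SERPINA1 and -0.16 for FGB. It adds the weak second peaks that APOB and SERPINA1 had with sgNS. FGB by gene and its 3' site were -0.089 and -0.089 on log2 folds and -0.18 and -0.17 on ranks of p. Leaving out 1 list gave -0.014 to 0.12 for FGB by gene, -0.0458 to 0.57 and -0.0031 to 0.12 for its upstream and 3' sites, -0.16 to 0.0217 for the 3' SERPINA1 site, -0.24 to 0.12 for the log2 bases of FGA and -1.92 to -0.66 for those of the upstream FGB site. It gave 0.24 to 0.73 for FGA and 0.15 to 0.51 for FN1 by site.

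Sites in both sgMETTL1 lists only numbered 175, or 566 with 50% reciprocal overlap, under which the upstream FGB site has no value, and 312 to 1165 without 1 list. Sites in both sgNS lists only numbered 1077, or 705 when each list was cut to its 9388 peaks of smallest p, and 1653 to 2772 without 1 list. Genes in both sgMETTL1 lists only numbered 99, or 153 with lists of equal length and 166 to 333 without 1 list. Genes in both sgNS lists only numbered 302, or 201 with lists of equal length and 504 to 647 without 1 list. Without replicate 2 of sgNS the 3' proximal APOB site joined the sites of sgNS only. Fits without 1 list assume that the lone list varies like those of the other guide. Deviations of same-numbered lists in the rank scores correlated at -0.002 over genes and -0.001 over sites, so these scores showed no pairing by replicate number. Ranks within a list cannot show a shift of a whole list, and whether the replicates were prepared in pairs is not known here. The depth behind each value is unknown.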
